A study of Mus musculus with 3 samples.

Results

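ERα binding sites were examined at 10 genes of the Notch pathway, the receptors Notch1, Notch2, Notch3 and Notch4, the ligands Jag1 and Jag2, and the effectors Heyl, Hey1, Hey2 and Hes1. Members were the peaks of both ERα ChIP-seq replicates whose midpoint lay within 100 kb of any annotated transcription start site (TSS) of these genes. By this rule 24 of the 9607 peaks of replicate 1 and 15 of the 6819 peaks of replicate 2 were members. They formed 13 of the 6250 shared regions, which are the intervals covered by overlapping peaks of both replicates. No peak was within reach of more than 1 of the 10 genes.

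ChIP-seq recovers the DNA that a protein occupies with an antibody and sequences it. Each replicate was a pool of inguinal mammary glands from 6 wild-type BALB/c mice (BALB/cJ in the study's methods), ovariectomized when 6 weeks old, left for 10 days and then given 100 ng of 17β-estradiol for 2 h. Whole glands were used, so epithelium, fat pad and stroma contributed chromatin together, and a peak cannot be placed in any of these cells. All libraries came from estradiol-treated animals and the single input library served both replicates, so these lists describe binding after estradiol and not a change with it. Each peak carries a score, 10 times the negative log10 of its MACS p-value, and the calling threshold, a p-value of 1e-08, equals a score of 80. A score rises with sequencing depth as well as with enrichment, and it ranks peaks within a list. The study tabulates the reads of each library, which were not used here, and the lists hold no read counts, so the number of reads behind a peak cannot be read from them.

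Notch receptors are membrane proteins that bind Jagged and Delta-like ligands on neighbouring cells. After ligand binding, ADAM proteases and then γ-secretase cleave the receptor, and its intracellular part enters the nucleus, where it joins the DNA-binding protein RBPJ and a Mastermind coactivator. Hes and Hey genes, which encode basic helix-loop-helix repressors, are the classic targets of this complex. In the mammary gland the pathway is known for its part in luminal cell fate, and Notch4 was identified through insertions of mouse mammary tumour virus.

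The sequence at the 13 shared regions is shown first, because the regions ranged from a full to a poor match to the estrogen response element (ERE), the palindrome to which an ERα dimer binds directly. The ERE consensus used here was GGTCANNNTGACC, in which each arm of 5 bases is the reverse complement of the other. For every region, the 13 bases that matched it best within the 400 bp window at the midpoint are in capitals with 9 bases to each side. The plus strand of mm9 is given, and the distance is that of the midpoint of the region from the nearest TSS of the gene, negative when upstream. The reference sequence is that of C57BL/6J, whereas the mice were BALB/c.
Notch1, -8.23 kb, chr2:26380412-26380442: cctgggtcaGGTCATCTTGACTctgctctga
Notch1, 9.04 kb, chr2:26350451-26350481: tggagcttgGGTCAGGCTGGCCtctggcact
Notch1, -40.4 kb, chr2:26412590-26412620: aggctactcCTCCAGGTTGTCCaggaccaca
Notch2, 26.1 kb, chr3:97843599-97843629: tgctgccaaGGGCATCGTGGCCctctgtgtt
Notch3, 49.4 kb, chr17:32254519-32254549: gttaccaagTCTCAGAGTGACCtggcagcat
Notch3, 93.6 kb, chr17:32210176-32210206: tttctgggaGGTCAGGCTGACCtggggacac
Notch4, 2.13 kb, chr17:34717045-34717075: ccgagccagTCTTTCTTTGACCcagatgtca
Notch4, 68.7 kb, chr17:34792640-34792670: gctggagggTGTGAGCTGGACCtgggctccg
Heyl, -5.01 kb, chr4:122905770-122905800: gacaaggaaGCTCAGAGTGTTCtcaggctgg
Hey1, -45.7 kb, chr3:8712718-8712748: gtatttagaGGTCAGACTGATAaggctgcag
Hey2, -0.535 kb, chr10:30563093-30563123: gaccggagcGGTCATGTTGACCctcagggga
Hey2, 32.5 kb, chr10:30530111-30530141: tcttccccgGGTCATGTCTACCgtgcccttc
Hey2, 45.5 kb, chr10:30517080-30517110: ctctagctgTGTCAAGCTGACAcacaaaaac
Only the regions of Notch3 at 93.6 kb and Hey2 at -0.535 kb held an ERE without mismatch, which 6.60% of all shared regions held. Counting from 1 at the left end of the 13 bases, the Notch1 region at -8.23 kb carried the substitution C13T and the Notch1 region at 9.04 kb carried A11G. In the remaining 9 regions the best match had 2 to 4 mismatches. Of these, the Hey1 region kept its left arm intact (C12T and C13A), as did the Hey2 region at 32.5 kb (T9C and G10T), while the Notch3 region at 49.4 kb (G1T and G2C) and the Notch4 region at 2.13 kb (G1T, G2C, C4T and A5T) kept the right arm. Neither arm was kept by Heyl (G2C, A11T and C12T), Hey2 at 45.5 kb, Notch1 at -40.4 kb, Notch2 or Notch4 at 68.7 kb.

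Of the 10 genes, 7 had at least 1 shared region within 100 kb. Hey2 and Notch1 had 3 each, Notch3 and Notch4 had 2 each, and Heyl, Hey1 and Notch2 had 1 each. Hes1, Jag1 and Jag2 had none. Over all 22367 protein-coding genes, 38.1% had a shared region within 100 kb and 8.88% had at least 3, while 4531 genes had exactly 1. Peaks of replicate 1 lay within reach of 9 of the 10 genes, against 49.6% of protein-coding genes, and peaks of replicate 2 within reach of 7, against 40.3%. A TSS of the gene itself was the nearest TSS of any gene for 6 of the 13 regions, and these belonged to 5 genes (Notch1, Notch2, Notch4, Heyl and Hey2). The same held for 11.8% of protein-coding genes. Heyl, Hey2, Notch1 and Notch4 had a shared region within 10 kb of a TSS, which 8.09% of protein-coding genes had. The 10 genes were chosen with results of these data known and were not tested against other genes. Genes whose annotated TSSs lie far apart also have a wider window. Notch1 has 13 annotated TSSs and a window of 253.9 kb, and Notch4 has 11 and 222.8 kb. Jag1, which had no shared region, has 2 and 230.7 kb. The median protein-coding gene has 2 and 200.1 kb.

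**Figure D1:**
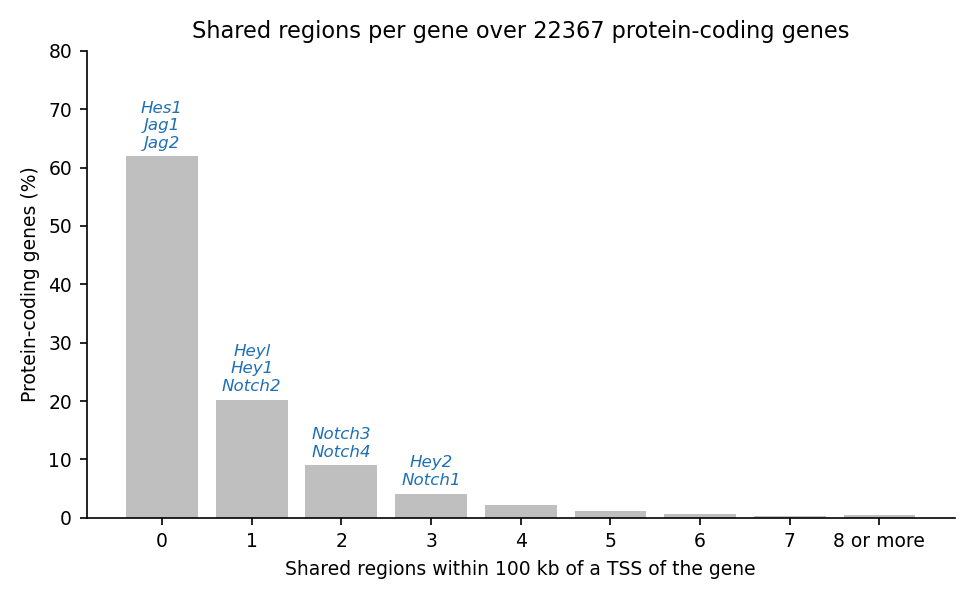
Shared regions within 100 kb of a TSS per gene (x axis) against the percent of the 22367 protein-coding genes with that number (grey bars, y axis), with the 10 Notch pathway genes written above the bar of their own count. Notch1 and Hey2 stand at 3 regions, a number reached by 8.88% of genes, and Hes1, Jag1 and Jag2 stand in the bar at 0.

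The shared regions fell on both sides of the TSSs. Of the 13, 5 were upstream and 8 downstream of the nearest TSS of their gene, and the median distance was 32472 bp. Side and distance were not computed over all shared regions, so these values cannot be read against a background. By their midpoints 9 were intergenic and 4 intronic (30.8%), and none was in an exon. Over the 6243 shared regions on assembled chromosomes, 42.8% were intronic. The midpoints of the overlapping peaks were at most 102 bp apart and a median of 46 bp apart, against 37 bp over all shared regions. Shared peaks overlap by definition, which limits how far apart their midpoints can be.

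**Figure D2:**
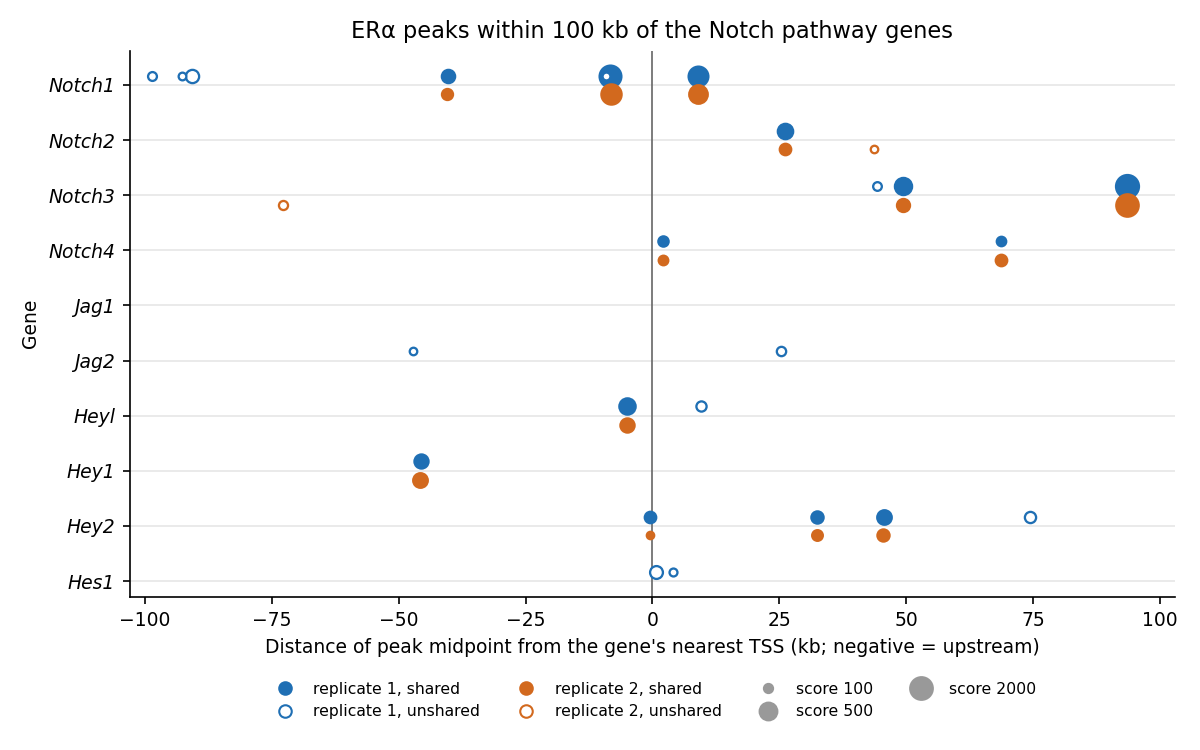
Position of each of the 24 replicate 1 peaks (blue) and 15 replicate 2 peaks (orange) from the nearest TSS of its gene in kb (x axis), by gene (y axis). Filled circles overlap a peak of the other replicate, open circles do not, and the circle grows with the score. Notch1 and Notch3 carry the largest circles, Jag1 has no peak, and the open circles are mostly those of replicate 1.

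Among the receptors, Notch1 (ENSMUSG00000026923, minus strand of chr2:26313423-26372183) had the most peaks, 7 in replicate 1 and 3 in replicate 2, and all 3 of the latter were shared. Its highest-scoring region, chr2:26380028-26380802, was intergenic and upstream at -8232 bp. The replicate 1 score was 1494 (rank 240 of 9607) and the replicate 2 score was 947 (rank 356 of 6819). The region was in the highest 2.50% of the first list and the highest 5.22% of the second. Its sequence is printed because it was the highest-scoring region for which a TSS of one of the 10 genes was the nearest TSS. Capitals mark the ERE with 1 mismatch, which lay 12 bp from the midpoint.
Notch1, -8.23 kb, chr2:26380315-26380514: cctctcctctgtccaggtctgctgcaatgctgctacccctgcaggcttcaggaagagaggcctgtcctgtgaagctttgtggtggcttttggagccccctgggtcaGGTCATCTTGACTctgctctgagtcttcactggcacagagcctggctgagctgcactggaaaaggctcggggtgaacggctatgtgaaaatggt
The ERE followed directly on another copy of its arm, ggtca, in the same direction. The second Notch1 region, chr2:26349837-26350762, lay in an intron of Notch1 scoring 838 (rank 729) in replicate 1 and 600 (rank 764) in replicate 2. The nearest annotated TSS, that of a shorter transcript, was 9043 bp away, and the most 5′ TSS of Notch1 was 21884 bp away. Its ERE, in capitals below, was 167 bp from the midpoint, near the edge of the 400 bp window.
Notch1, 9.04 kb, chr2:26350199-26350492: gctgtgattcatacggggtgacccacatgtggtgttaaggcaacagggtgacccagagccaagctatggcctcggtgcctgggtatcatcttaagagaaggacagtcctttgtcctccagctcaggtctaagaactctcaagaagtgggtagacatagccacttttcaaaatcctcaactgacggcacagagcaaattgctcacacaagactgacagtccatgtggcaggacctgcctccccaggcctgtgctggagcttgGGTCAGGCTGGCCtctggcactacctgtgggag
The third Notch1 region, chr2:26412121-26412996 at -40375 bp, had lower scores of 189 and 130, and its window held no ERE arm. The nearest TSS to it was that of the pseudogene Gm13358. Egfl7, which encodes an endothelial secreted protein, and Gm20532 also had a TSS within 100 kb of each of these 3 regions.

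The other 4 peaks near Notch1 were in replicate 1 alone, with scores of 85.6, 189, 84.1 and 96.0. The first of them lay at -9221 bp, next to the upstream region. The others lay between -90802 and -98498 bp, in introns of Gm20532 and nearer to Agpat2 than to Notch1. The score of 189 was equal to that of the shared region at -40375 bp, so this peak went without a partner in replicate 2 at a score at which another Notch1 peak had one.

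Notch3 (ENSMUSG00000038146, minus strand of chr17:32257765-32303825) had the highest-scoring region of the 13, but at the edge of the reach. The region chr17:32209803-32210726 scored 2136 in replicate 1 (rank 91) and 1804 in replicate 2 (rank 68), within the highest 0.947% and 0.997% of the lists. Only 1.06% of all shared regions had a higher value for the lower of their scores. It lay 93561 bp downstream of the Notch3 TSS but only 14151 bp from a TSS of Rrp1b, which encodes a ribosomal RNA processing protein. The region began 47039 bp past the 3′ end of Notch3. Its sequence is printed because it was the only one of the 13 with more than 1 match to the ERE within 1 mismatch in the window.
Notch3, 93.6 kb, chr17:32210112-32210363: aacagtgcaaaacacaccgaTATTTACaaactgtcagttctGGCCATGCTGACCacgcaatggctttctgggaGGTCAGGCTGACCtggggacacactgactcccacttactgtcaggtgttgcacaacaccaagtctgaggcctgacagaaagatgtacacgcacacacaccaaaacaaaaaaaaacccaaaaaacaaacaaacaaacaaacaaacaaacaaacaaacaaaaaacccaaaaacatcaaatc
From left to right, the capitals mark the forkhead (FOXA1) consensus tatttac, an ERE with the substitution T3C, and an ERE without mismatch. The EREs were 105 and 73 bp to the left of the midpoint. The second Notch3 region, chr17:32254092-32254807, began 2958 bp past the 3′ end of the gene, with scores of 430 and 181. It had the largest ratio between the replicates, 2.37. It held 5 ERE arms but no ERE within 1 mismatch. Notch3 also had an unshared peak of replicate 1 over an exon, with a score of 94.0, and an unshared peak of replicate 2, with a score of 98.9.

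Notch2 (ENSMUSG00000027878, plus strand of chr3:97817461-97954290) had 1 shared region, chr3:97843294-97843842, in an intron 26107 bp downstream of its TSS. It scored 286 in replicate 1 and 139 in replicate 2, a ratio of 2.06. No TSS of another protein-coding gene was within 100 kb. A second peak in the gene, in an intron at 43614 bp, was in replicate 2 alone and had a score of 82.3. Notch4 (ENSMUSG00000015468, plus strand of chr17:34701213-34725448) had the lowest replicate 1 scores among the shared regions of the receptors. The intronic region chr17:34716849-34717309 had scores of 116 and 105 and lay 2126 bp from the nearest TSS and 15866 bp from the most 5′ one. The intergenic region chr17:34792393-34792918, at 68669 bp, had scores of 104 and 139, and its nearest TSS was that of Atf6b. These regions were within 100 kb of 13 and 12 other protein-coding genes, more than any other region of the set.

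Of the ligands, Jag1 (ENSMUSG00000027276, minus strand of chr2:136907192-136942380) had no peak in either list within 100 kb. The closest was a replicate 1 peak at 403662 bp with a score of 85.7, and the closest shared region was at -1131582 bp. Jag2 (ENSMUSG00000002799, minus strand of chr12:114146801-114167706) had peaks in replicate 1 alone. They lay at 25280 bp, with a score of 102, and at -47229 bp, with a score of 82.6. The latter lay 161 bp from a TSS of Btbd6. Its closest shared region was at -176958 bp. A gene without a peak at this threshold is not shown to be unbound.

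Heyl (ENSMUSG00000032744, plus strand of chr4:122910799-122927118), whose transcript the study also followed by quantitative PCR, had 1 shared region. It was chr4:122905502-122906082, intergenic and upstream at -5007 bp, and the Heyl TSS was the nearest of any gene. Its scores were 351 in replicate 1 (rank 2147) and 225 in replicate 2 (rank 2429). They were below those of the Notch1 and Notch3 regions named first and above those of the Hey2 regions in both lists. A shared region at least this close to a TSS was found for 5.02% of protein-coding genes. The sequence is given because its ERE-like match was poor while single arms were frequent.
Heyl, -5.01 kb, chr4:122905692-122905891: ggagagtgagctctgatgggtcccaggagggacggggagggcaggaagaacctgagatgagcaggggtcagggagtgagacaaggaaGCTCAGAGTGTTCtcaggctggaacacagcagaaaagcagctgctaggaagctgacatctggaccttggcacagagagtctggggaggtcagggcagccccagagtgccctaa
The capitals mark the best ERE-like match, with 3 mismatches. The 400 bp window held 4 copies of the arm GGTCA, counted on both strands, a number reached by 10.9% of all shared regions, whose median was 2. A second Heyl peak, in replicate 1 alone with a score of 115, lay over the 3′ part of the gene at 15754 bp from its 5′ end. TSSs of Pabpc4, Ppie and 3 other protein-coding genes were also within 100 kb of the shared region.

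Hey1 (ENSMUSG00000040289, minus strand of chr3:8663362-8667039) had 1 peak in each list, and they overlapped. The region chr3:8712396-8713058 was intergenic at -45688 bp and scored 221 in replicate 1 and 244 in replicate 2. It was one of the 2 regions of the set with the higher score in replicate 2, the other being the distal Notch4 region, and their ratios were 0.91 and 0.74. No TSS of another protein-coding gene was within 100 kb, although the TSS of a SNORA17 gene was nearer than that of Hey1.

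Hey2 (ENSMUSG00000019789, minus strand of chr10:30552165-30562607) had 3 shared regions, all with modest scores. The regions at 45526 and 32472 bp downstream, chr10:30516807-30517355 and chr10:30529840-30530430, had scores of 240.2 and 157 in replicate 1 and 155 and 123 in replicate 2. Both lay nearer to a TSS of Ncoa7, which encodes a nuclear receptor coactivator, and the former lay in an intron of that gene. The third, chr10:30562862-30563423, was the closest to a TSS of the 13, at -535 bp. It scored 138 in replicate 1 and 81.4 in replicate 2, where it ranked 6699 of 6819. Only 1.46% of all shared regions had an equal or lower value for the lower score, while 1.42% of protein-coding genes had a shared region as close. Its sequence, with the ERE without mismatch in capitals, is shown because a full palindrome and a score near the threshold came together here.
Hey2, -0.535 kb, chr10:30563042-30563241: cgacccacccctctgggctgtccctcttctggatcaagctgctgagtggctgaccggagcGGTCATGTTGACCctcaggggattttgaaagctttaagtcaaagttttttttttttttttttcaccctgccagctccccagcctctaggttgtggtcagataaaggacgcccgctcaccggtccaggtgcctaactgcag
The window held 18 CpG dinucleotides, against a median of 4 over all shared regions, and 2.82% of them had at least as many. An unshared replicate 1 peak at 74323 bp, in an intron of Ncoa7, had a score of 133.

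Hes1 (ENSMUSG00000022528, plus strand of chr16:30064470-30067882) had peaks in replicate 1 alone. The peak chr16:30066842-30067591 lay over an exon of this short gene, 792 bp from the nearest TSS and 2746 bp from the most 5′ one, with a score of 175 (rank 4481). The peak chr16:30070156-30070914 lay past its 3′ end with a score of 86.2. The former scored above 4 of the replicate 1 peaks that had a partner, those of both Notch4 regions and of 2 Hey2 regions. The closest shared region was at 106720 bp, just beyond the reach. The shared region with the largest distance within the reach was that of Notch3 at 93561 bp, and the next beyond it after that of Heyl (100741 bp, scores 253 and 158) was that of Notch1 at -105082 bp, with scores of 365 and 200.

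The scores of replicate 1 exceeded those of replicate 2 in 11 of the 13 regions (84.6%), against 80.2% of all shared regions. The median ratio was 1.46, against 1.31. The lower of the scores had a median of 155 in the 13 regions and 168 over all shared regions, so the regions as a group scored near the middle of the list. Within the group the range was wide, from 81.4 at Hey2 to 1804 at Notch3. The 3 highest-scoring regions, at Notch3 and Notch1, all had an ERE within 1 mismatch.

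**Figure D3:**
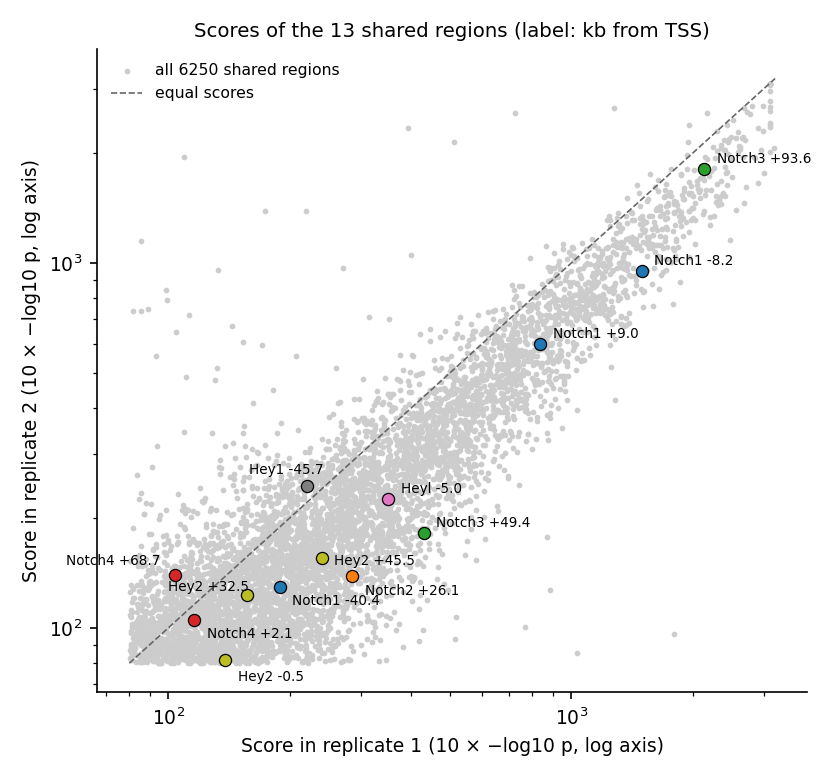
Score in replicate 1 (x axis) against the score in replicate 2 (y axis), both on log axes, for all 6250 shared regions (grey) and the 13 at Notch pathway genes (coloured by gene, labelled with the distance from the TSS in kb). The dashed line marks equal scores. Only Hey1 and the distal Notch4 region lie above it, and the Notch3 region at 93.6 kb and the Notch1 regions at -8.23 and 9.04 kb lie apart from the other 10 at the top right.

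Of the replicate 1 peaks at these genes, 13 of 24 were shared (54.2%, exact Clopper-Pearson 95% interval 32.8% to 74.4%), and of those of replicate 2, 13 of 15 were (86.7%, 59.5% to 98.3%). The shares over the whole lists were 64.9% and 90.6%, within these intervals. The intervals cover counting error only and treat the peaks as independent, although several lie near the same gene. The 11 unshared replicate 1 peaks had scores from 82.6 to 189 with a median of 96.0, and the 13 shared ones had a median of 240.2. Over the whole replicate 1 list the medians were 105 for unshared and 246 for shared peaks. The unshared peaks were spread over 5 genes besides Hes1, namely Notch1 with 4, Jag2 with 2, and Heyl, Hey2 and Notch3 with 1 each.

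An ERE with at most 1 mismatch was found in 4 of the 13 windows (30.8%, exact 95% interval 9.09% to 61.4%), against 31.1% of all shared regions, which is close to the same share. The 4 were the Notch1 regions at -8.23 and 9.04 kb, the Notch3 region at 93.6 kb and the Hey2 region at -0.535 kb. The median of the lower score was 773 in these 4 regions and 139 in the other 9. Over all shared regions it was 247 with and 150.4 without an ERE. The Hey2 region was the exception among the 4, with the lowest score of all 13. A copy of the arm GGTCA on either strand was present in every window except that of the Notch1 region at -40.4 kb, and was missing from 11.1% of all windows.

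Other motifs were each found in few of the 13 windows, and in at most 16.7% of all shared regions. They were searched on both strands as AP1 (TGACTCA or TGAGTCA, bound by Fos and Jun dimers), SF1 (CAAGGTCA, which contains the ERE arm), PAX2 (GTCACG), FOXA1 (TGTTTAC or TATTTAC) and RBPJ (GTGGGAA, the DNA partner of Notch). AP1 was found in 0 of the 13 windows, against 16.7% of all shared regions, SF1 in 0 against 9.34% and PAX2 in 0 against 9.16%. With 13 windows, a count of 0 leaves an exact 95% interval up to 24.7%, which includes all these shares. The intervals given for windows cover counting error only and treat the windows as independent, although some lie near the same gene. FOXA1 was found in 1 window, that of Notch3 at 93.6 kb, against 14.0%. RBPJ was found in 2, against 9.16%, those of Hey1 at -45.7 kb and Hey2 at 32.5 kb. The Hey1 match was at -164 bp from the midpoint, near the edge of the window, and the Hey2 match was at 7 bp. The window around the midpoint of the Hey1 peak of replicate 2 did not hold the RBPJ match. None of the 6 motifs was found in 7 of the 13 windows (53.8%, 25.1% to 80.8%), against 37.1% of all shared regions. The windows had a median GC content of 53.8%, with the highest value (61.8%) at the distal Notch4 region, against 48.2% over all shared regions. Unshared peaks were not part of these counts. Among their windows, AP1 was found only at Notch1 (-9221 bp) and Notch2 (43614 bp), and RBPJ only at that Notch1 peak. An ERE with 1 mismatch was found only at Jag2 (25280 bp).

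**Figure D4:**
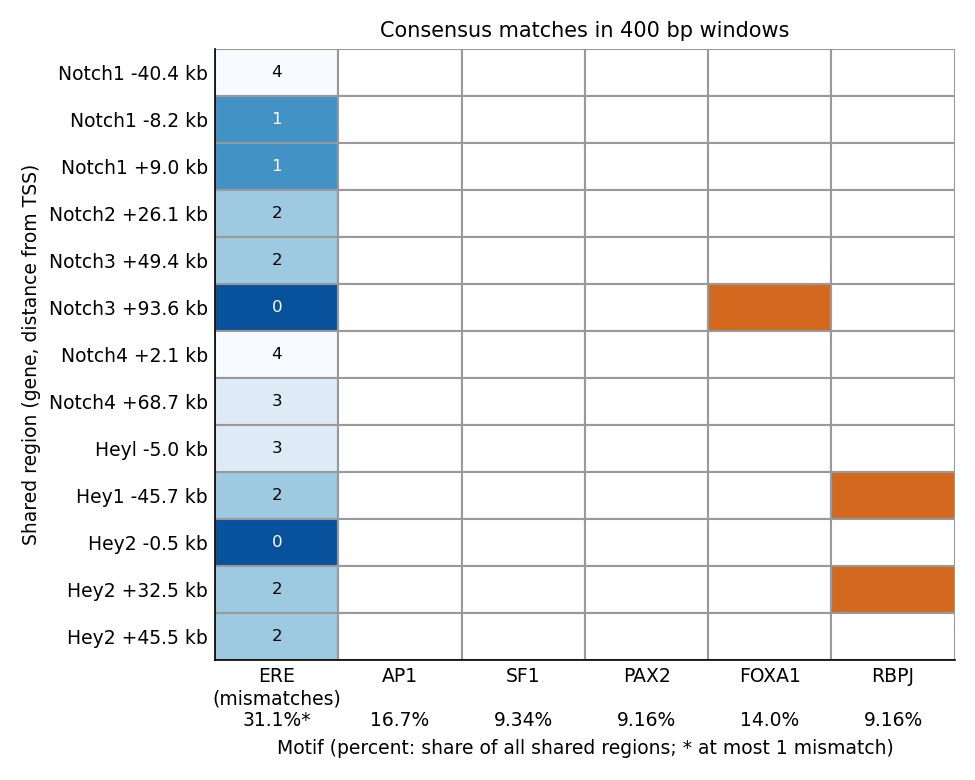
Motif matches in the 400 bp window of each of the 13 shared regions (rows, by gene and distance from the TSS). The first column gives the mismatches of the best ERE-like sequence, darker for fewer, and orange cells in the other columns mark a match. The percentages under the columns are the shares of all shared regions with the motif. The ERE column is dark for 4 regions, the AP1, SF1 and PAX2 columns are empty, and 3 orange cells stand at Notch3, Hey1 and Hey2.

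The other genes of the pathway were counted in the same way. Of 45, 25 (55.6%) had a shared region within 100 kb, beside 38.1% of protein-coding genes. A TSS of their own was the nearest for 8 (17.8%), beside 11.8%. Together they were within reach of 61 different shared regions, none of them within reach of the 10 genes above. By role, a region was found for 5 of 8 genes of the nuclear complex, 5 of 8 proteases, 4 of 6 other effectors, 7 of 12 genes of endocytosis and turnover, 2 of 5 glycosyltransferases and 2 of 6 other ligands. Rbpj itself had no peak within 100 kb in either list.

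The highest of these scores were at Numbl, Maml2, Hes6, Maml3 and Nrarp. At Numbl, a paralogue of the Notch inhibitor Numb, the best region scored 1379 in replicate 1 and 991 in replicate 2 and lay 37060 bp downstream of its TSS and nearer to Ltbp4. At Maml2, a Mastermind coactivator, the only region lay at -32636 bp with scores of 1079 and 986, and Maml2 was the nearest gene. At Hes6, a relative of Hes1 that opposes it, the best of 6 regions had scores of 1211 and 860 and lay 96464 bp away, in an intron of Scly. At Maml3, an intron held a region with scores of 706 and 635, 51241 bp downstream of a Maml3 TSS and nearer to AC116729.1. At Nrarp, which encodes a feedback inhibitor of Notch, the best of 3 regions had scores of 1011 and 604 and was 54967 bp from the TSS. It lay in an exon of Gm757, which was the nearest gene.

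**Figure D5:**
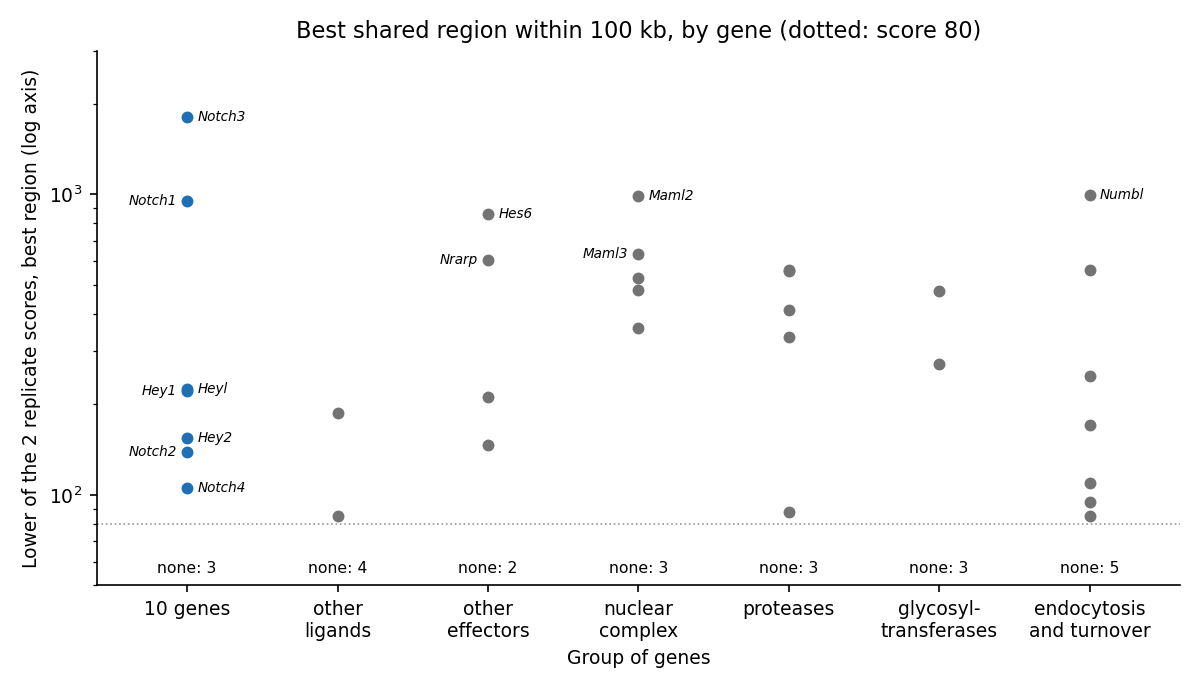
Best shared region within 100 kb of each gene (y axis, the lower of the replicate scores on a log axis) for the 10 genes (blue) and the other Notch pathway genes by role (grey). Names are given for the 10 genes and for the 5 others with the highest scores, the number of genes with no region is written under each column, and the dotted line is the score of 80. Notch3 and Notch1 lead the first column, and Numbl, Maml2 and Hes6 reach similar values to Notch1 in the others.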

How the data were processed

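Reads of 51 nt were mapped by the authors to mm9 using BWA, and MACS was run on each replicate with 1 input library as control (p-value threshold 1e-08). The MACS version is not given in the sources used here. The deposited score of a peak equals -log10 of its p-value multiplied by 10, and replicates were not pooled. Read counts were not analysed here.

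An overlap of 1 bp or more made a pair of peaks shared. TSSs, exons and introns were those of GENCODE version 1 for mouse (Ensembl 65) on NCBIM37, the assembly of mm9, in which all 10 symbols were found. The peaks on assembled chromosomes ended within its chromosome lengths. Midpoints of shared regions gave distances and the centres of 400 bp windows, which were searched for consensus sequences. Background values cover protein-coding genes or shared regions on assembled chromosomes. Overlap, distance and ERE search were tested on simulated data. The 10 genes and the lists of pathway genes and motifs were chosen with earlier results of these data known, and no test was made. With 2 replicates there is no spread between animals. All 10 genes are described, and of the other pathway genes the 5 with the highest lower score. Counts of single ERE arms were added after seeing the data. Alternatives were stricter p-values, other overlaps, reaches, TSS sets and motif settings, and each replicate alone. The tools were samtools 1.23.1 and Python 3.11.15 with matplotlib 3.10.9, pysam 0.24.0 and scipy 1.17.1. Some genes are not reported here by name.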

Additional observations from a re-analysis of the deposited data

How the results depend on the processing

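With both lists restricted to p-values of 1e-20 or less, 5 shared regions remained near 4 of the 10 genes (Heyl, Hey1, Notch1 and Notch3), and 2 genes had a region nearest to their own TSS. No share of all protein-coding genes is given at this p-value, so these gene counts cannot be read against a background. With a reach of 200 kb there were 33 regions. From the peaks of a single replicate (leaving out the other), there were 15 to 24 regions, near 7 to 9 genes and nearest to 5 to 6, and 4 to 5 windows held an ERE, the last chosen after seeing the data. The higher region and gene counts were those of replicate 1. An ERE without mismatch was found in 2 of the 13 windows (6.60% of all shared regions), and with at most 2 mismatches in 9 (69.2%, against 67.4%). The other alternatives stayed within 1.5 times of the values reported. With midpoints required within 100 bp, Hey1 had no shared region. No paired analysis was possible because the peak lists belong to a single group. The lists give no read counts, so weaker binding at Jag1, Jag2 and Hes1 could not be measured.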

Other observations

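The reach of 100 kb left shared regions just outside it. Within 200 kb, Notch4 had 9 shared regions and Hes1 had 7, numbers reached by 1.35% and 3.21% of protein-coding genes at that reach. Heyl and Notch1 had 4 each (13.2%), and Hey2 and Notch3 had 3 each (21.4%). Hey1, Notch2 and Jag2 had 1 each (56.0%), and Jag1 still had none. Genes with a TSS nearest to a shared region still numbered 5 at this reach, and Hes1 was not among them. The first shared region beyond 100 kb was nearest to n-R5s32 for Hes1 and to U6 for Notch4. The shared region next to Heyl beyond the reach, chr4:123017477-123018005, was nearest to Bmp8a, another gene that the study followed by quantitative PCR. These values were examined after the data were seen and were not tested.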
